A study of Caenorhabditis elegans with 2 samples.

Results

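The genes described here encode ubiquitin, its activating and conjugating enzymes, the cullins and RING-box proteins that scaffold ubiquitin ligases, and the Skp1-related adaptors of Caenorhabditis elegans. They were chosen by name, as all protein-coding genes of the Ensembl annotation whose symbol starts with ubc-, uev-, ubq-, ubl-, uba-, cul-, rbx- or skr-, which gave 59 of the 19973 protein-coding genes on the 6 nuclear chromosomes. They were 24 conjugase genes (21 ubc- and 3 uev-), 20 skr- genes, 8 cullin and RING-box genes, and 7 genes for ubiquitin, ubiquitin-like proteins and activating enzymes. The study mapped binding of LIN-38, a synMuv A protein found in nuclei, by chromatin immunoprecipitation and sequencing. Its single group held 2 biological replicates of whole L4 larvae of strain RW12236, aged 48 hours after synchronisation by starving L1 larvae, in which CRISPR insertion had placed TY1, EGFP and 3xFLAG on lin-38 at its own locus (allele st12236), and the antibody recognised GFP. There was no group without the tag among the files analysed here, the replicates came from the same engineered strain, and whole animals mix all tissues, so a peak cannot be given to a tissue.

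Ubiquitin is activated by an E1 enzyme, passed to an E2 conjugase and placed on a target by an E3 ligase. In the largest class of ligases a cullin holds a RING-box protein, which recruits the conjugase, at one end and an adaptor at the other; for CUL-1 the adaptor is a Skp1-related protein, which binds the F-box proteins that choose the targets. Skp1-related genes form an expanded family in C. elegans, while most conjugases, the E1 and the cullin family are conserved from yeast to human. SUMO, NEDD8 and UFM1 are ubiquitin-like modifiers with E1 and E2 enzymes of their own.

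A promoter summit is the highest point of a deposited peak inside a window that opens 500 bp before any 5′ end of a gene's coding transcripts and closes 200 bp after it. The peaks were the authors' conservative list made from both replicates, with 5405 nuclear peaks, of which 2531 had a summit in a promoter window. Such summits marked 14.6% of all protein-coding genes. Each peak has a signal value given by the authors, whose scaling is not stated. It was used to rank and describe peaks, and peaks are called tall, low or weak by this value only. Values per replicate come from each replicate's own ranked list. Sequencing depth is unknown, since the lists hold no reads, and genes are not replicates, so no test was made across genes.

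The sequences around the summits of 8 of these genes are shown as examples. They include the tallest peak of the set, the tallest conjugase peak and the only skr- peak. The others follow no stated rule, so the printed sequences do not stand for the whole set. Each runs 50 bp to either side of the summit, in the direction of the gene, from the RefSeq copy of WBcel235, the assembly also called ce11. Capitals mark any match, on either strand, to the patterns TTTGAA or TTTCGAA, to CTGCGTC or GAGAGA, to GGGCGGG, or to either GCGCG or GCGCCA, and lower case is everything else. None of these windows overlapped an annotated UTR.
ubl-1 (chrIII:3068054-3068154, plus strand): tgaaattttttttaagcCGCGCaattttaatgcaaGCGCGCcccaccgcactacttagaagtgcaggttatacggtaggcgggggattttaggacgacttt
uba-1 (chrIV:9995140-9995240, minus strand): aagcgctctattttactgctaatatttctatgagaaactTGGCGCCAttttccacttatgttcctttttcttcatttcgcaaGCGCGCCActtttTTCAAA
ubc-6 (chrII:7478888-7478988, plus strand): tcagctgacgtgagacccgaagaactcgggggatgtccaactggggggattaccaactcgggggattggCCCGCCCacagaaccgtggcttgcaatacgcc
ubc-7 (chrIII:9631423-9631523, minus strand): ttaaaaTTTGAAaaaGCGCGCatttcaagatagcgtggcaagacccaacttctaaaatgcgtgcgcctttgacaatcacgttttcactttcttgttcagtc
ubc-9 (chrIV:4650728-4650828, plus strand): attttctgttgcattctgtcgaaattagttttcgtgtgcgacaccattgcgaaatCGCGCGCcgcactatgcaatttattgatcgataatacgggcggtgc
cul-3 (chrV:177032-177132, plus strand): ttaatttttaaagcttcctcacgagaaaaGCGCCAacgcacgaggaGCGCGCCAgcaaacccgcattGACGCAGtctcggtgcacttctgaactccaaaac
cul-4 (chrII:7301813-7301913, plus strand): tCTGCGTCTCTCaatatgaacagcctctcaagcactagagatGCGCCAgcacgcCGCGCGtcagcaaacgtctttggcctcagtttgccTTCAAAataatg
skr-18 (chrIV:795618-795718, minus strand): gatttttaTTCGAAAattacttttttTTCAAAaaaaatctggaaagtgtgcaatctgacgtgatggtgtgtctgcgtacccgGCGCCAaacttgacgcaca

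LIN-38 summits marked every ubq-, ubl- and uba- gene, some of the conjugases and cullins, and 1 Skp1-related gene. Of the 59 genes, 20 (33.9%) had a promoter summit, against 14.6% of all protein-coding genes. All 7 ubiquitin, ubiquitin-like and activating enzyme genes had one. So did 9 of 24 conjugase genes (37.5%) and 3 of 8 cullin and RING-box genes (37.5%), but only 1 of 20 skr- genes (5%). These counts depend on the window: from 200 bp upstream to 100 bp downstream, 4 of the 59 genes (6.78%) were marked, beside 8.04% of all genes, and these were 1 of the 7, 2 conjugases, 1 RING-box gene and no skr- gene. The 20 genes held 21 summits, as uba-1 had a pair of them. Their median signal value was 392, beside 283 over all 2531 promoter summits, and 16 of the 21 lay above that overall median. Of the 21, 20 overlapped a peak in both replicates' own thresholded lists (95.2%, beside 75.3% of all promoter summits); the exception was the summit at ubc-19, which overlapped one of replicate 2 only.

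**Figure D1:**
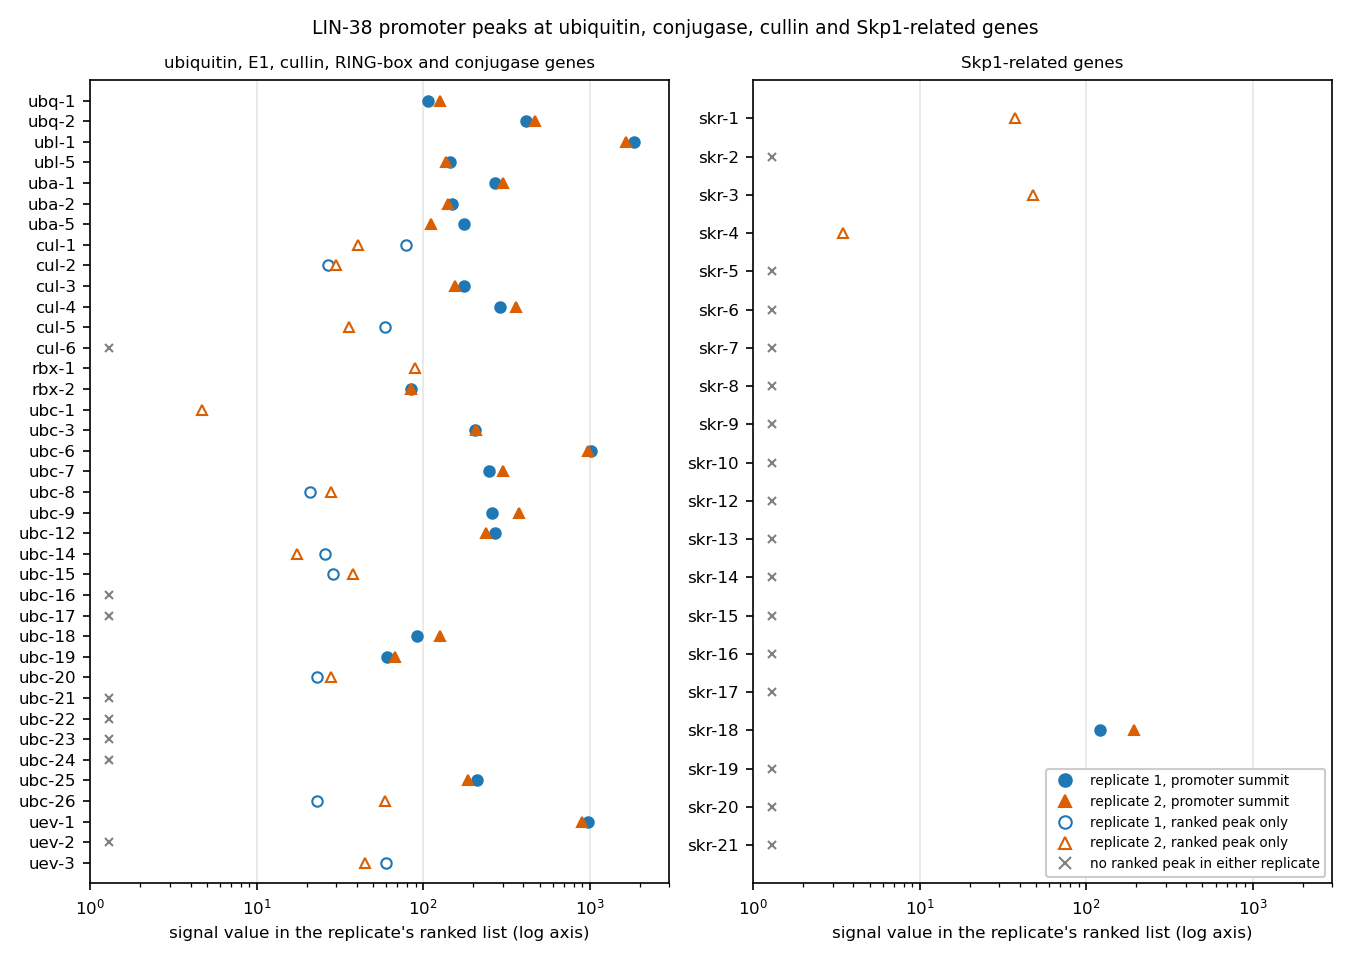
Signal value in replicate 1 (circles) and replicate 2 (triangles) at 58 of the 59 genes, on a log axis. Filled symbols are peaks of the conservative list with a summit in the promoter window (the taller one for uba-1), open symbols are ranked peaks in genes without such a summit, and crosses are genes with no ranked peak in either replicate; the skr- genes in the right panel are almost all crosses.

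The ubq- and ubl- genes, which encode ubiquitin and ubiquitin-like proteins, were all marked. At ubl-1, which encodes a ubiquitin-like protein fused to ribosomal protein S27a, replicate 1 had a signal value of 1846, replicate 2 had 1645 and the conservative list 3494, rank 118 of 5405 peaks and the highest of the 59 genes. This peak covered bases 3067911 to 3068295 of chromosome III and had its summit 206 bp before the 5′ end, in intergenic sequence. At ubq-2, which encodes ubiquitin fused to ribosomal protein L40, the values were 415 and 469 (895 in the conservative list). That summit was 475 bp upstream of ubq-2 and only 164 bp upstream of the divergent gene frg-1, so it cannot be credited to ubq-2 alone. The polyubiquitin gene ubq-1 had a weaker peak, at 106.7 and 126 (222 in the conservative list). It lay in an intron, 444 bp downstream of the outermost 5′ end of ubq-1 and 288 bp upstream of an inner one. At ubl-5, a ubiquitin-like gene known from the mitochondrial unfolded protein response, the values were 144 and 137 (291). The replicates were close at all of these genes, the log2 ratio of replicate 1 over replicate 2 lying between -0.24 at ubq-1 and 0.17 at ubl-1.

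Each of the 3 activating enzyme genes of the set had a summit. uba-1, which encodes the E1 of ubiquitin itself, had values of 269 in replicate 1 and 301 in replicate 2 at its upstream summit (581 in the conservative list), on chromosome IV from 9995006 to 9995378, 245 bp upstream of the outermost 5′ end. Its other summit, at 81.4 and 86.7 (153), lay in an intron 1243 bp into the gene and 353 bp upstream of an inner 5′ end. At uba-2, a subunit of the SUMO E1, the values were 149 and 140 (294). This summit was 305 bp upstream of uba-2 and 8 bp upstream of the divergent gene vps-25. At uba-5, the E1 of UFM1, they were 175 and 111.6 (285), in an intron 524 bp inside the gene and 397 bp upstream of an inner 5′ end, with another 5′ end nearer, 271 bp before the summit. The log2 ratio of 0.65 at uba-5 was the highest of the set. Across all promoter summits this ratio had a median of 0.07 and an SD of 0.36. Without inner 5′ ends, uba-5 and ubq-1 had no promoter summit, and 5 of the 7 genes (71.4%) kept one, beside 13.6% of all genes. With each summit given only to the nearest 5′ end among those whose window held it, ubq-2 and uba-2 lost theirs instead. Again 5 of the 7 (71.4%) kept one, beside 11.9% of all genes.

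Among the conjugases the tallest peaks were at ubc-6, whose yeast homologue works in degradation at the endoplasmic reticulum membrane, and at uev-1, an E2 variant, a protein related to conjugases that lacks their catalytic cysteine. For ubc-6, replicate 1 gave 1013 and replicate 2 gave 972 (1972 in the conservative list, rank 273). Its peak spanned bases 7478722 to 7479221 of chromosome II, and the summit was 249 bp upstream of ubc-6 and 401 bp upstream of the divergent gene aka-1. At uev-1 the values were 979 and 904 (1880, rank 301), with the summit 158 bp upstream. These stood well above the other 7 conjugases, which ranged from 145 to 635 in the conservative list.

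The conjugases of SUMO and NEDD8 were both marked. At ubc-9, the SUMO conjugase, the values were 258 in replicate 1 and 376 in replicate 2 (635), with a log2 ratio of -0.55, and the summit was 266 bp upstream. At ubc-12, the NEDD8 conjugase, they were 271 and 239 (510). Its summit was 282 bp upstream of ubc-12 but 17 bp upstream of the divergent gene rbm-3.2. The modifier genes smo-1 (SUMO; 373 and 369.8) and ned-8 (NEDD8; 457 and 375) lie outside the name rule and also had promoter summits. The UFM1 gene ufm-1 had none, with ranked peaks of 15.8 in replicate 1 and 29.3 in replicate 2. Nor did aos-1, the partner of uba-2 in the SUMO E1 (47.7 and 28.2), or the NEDD8 E1 genes ula-1 (39.5 and 36.5) and rfl-1 (none in replicate 1 and 23.3 in replicate 2).

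The remaining marked conjugases had peaks of middle or low height. ubc-7 had 247 in replicate 1 and 302 in replicate 2 (552), and ubc-3, the Cdc34 homologue that works with SCF ligases, had 204 and 207 (438). ubc-25 had 209.8 and 185 (392). ubc-18, which acts redundantly with the Rb homologue lin-35 in forming the pharynx, had 91.9 and 126 (219), at a summit 257 bp upstream of it and 236 bp upstream of the divergent gene R01H2.8. ubc-19 had the lowest values of the set, 60.8 and 67.4 (145), at a summit 121 bp upstream of it and 106 bp upstream of Y69H2.7. With replicate 1's own list in place of the conservative list, ubc-19 was the one conjugase lost; with replicate 2's list none was.

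The 15 conjugases without a promoter summit included ubc-1, ubc-8, ubc-14 to ubc-17, ubc-20 to ubc-24, ubc-26, uev-2 and uev-3. Many of them still had a low ranked peak in the window, 7 of 15 (46.7%) in replicate 1 and 8 of 15 (53.3%) in replicate 2, beside 25.7% and 26.1% of all protein-coding genes without a promoter summit. Their values reached at most 60.0 in replicate 1 (uev-3) and 58.8 in replicate 2 (ubc-26), just under the 60.8 and 67.4 of ubc-19. The other 7, ubc-16, ubc-17, ubc-21, ubc-22, ubc-23, ubc-24 and uev-2, had no ranked peak in either replicate.

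Of the cullins, cul-3 and cul-4 were marked. At cul-4, which limits DNA replication to once a cycle through destruction of CDT-1, the value was 289 in replicate 1 and 359 in replicate 2 (662), with the summit 238 bp upstream. At cul-3, which works with BTB-domain adaptors such as MEL-26, it was 176 and 156 (343), with the summit 335 bp upstream. cul-1, the cullin that binds Skp1-related proteins, had no promoter summit; its ranked peaks had 78.9 and 40.5. cul-5 had ranked peaks of 59.3 and 35.9 and cul-2 of 26.7 and 29.8, while cul-6, known from the response to intracellular pathogens, had none. rbx-2 had a peak of 84.9 in both replicates (167), 75 bp upstream of it and 97 bp upstream of the divergent gene ncbp-1. rbx-1 had no ranked peak in replicate 1 and one of 89.5 in replicate 2, which was in that replicate's own thresholded list but not in the conservative list. The difference between these RING-box genes thus rested on replicate 1.

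Of the 20 skr- genes, skr-18 alone had a promoter summit. Its value was 121 in replicate 1 and 193 in replicate 2 (306 in the conservative list, rank 1948), with a log2 ratio of -0.68, the lowest of the set. Bases 795540 to 795775 of chromosome IV made up this peak, whose summit was 235 bp upstream in intergenic sequence. skr-17 fell just outside the window: a peak of 278 (160 in replicate 1 and 111.2 in replicate 2) had its summit in the 5′ UTR, 228 bp downstream of the 5′ end and 28 bp past the edge. The closely linked skr-1 and skr-2, which encode the main Skp1 proteins of CUL-1 ligases, had no promoter summit; skr-1 had a ranked peak of 37.5 in replicate 2 only and skr-2 none. Further ranked peaks in replicate 2 lay at skr-3 (47.6) and skr-4 (3.45). No ranked peak of either replicate lay in the window of skr-2, skr-5 to skr-10, skr-12 to skr-17 or skr-19 to skr-21.

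Conjugases and skr- genes were set side by side in the conservative list, the ranked lists and the distance to the nearest summit. Promoter summits were at 9 of 24 conjugases (37.5%) and 1 of 20 skr- genes (5%), with 14.6% of all genes between them. In the window from 200 bp upstream to 100 bp downstream it was 2 of 24 conjugases (8.33%) and 0 of 20 skr- genes, beside 8.04% of all genes. With each summit given only to the nearest 5′ end among those whose window held it, it was 6 of 24 (25%) and 1 of 20 (5%), beside 11.9%. Among the genes without a summit, ranked peaks were in the window of 7 of 15 conjugases and 0 of 19 skr- genes in replicate 1, and of 8 of 15 (53.3%) and 3 of 19 (15.8%) in replicate 2. Of all protein-coding genes without a summit, 25.7% had one in replicate 1 and 26.1% in replicate 2. With marked genes counted too, a peak was in the window of 36.4% of all genes in replicate 1's ranked list, and of 36.8% in replicate 2's. Counted in that way, it was 16 of 24 conjugases and 1 of 20 skr- genes in replicate 1. In replicate 2 it was 17 of 24 and 4 of 20. The nearest summit of the conservative list, at any distance, was a median of 2279 bp from the 5′ end of a conjugase gene and 27607 bp from that of a skr- gene, and 9778 bp over all protein-coding genes. It was within 5000 bp for 16 of 24 conjugases, for 2 of 20 skr- genes and for 36.5% of all genes. Genes with a promoter summit are among these, so the distances partly repeat the promoter counts. No test was made of these differences, since genes in clusters and genes that share a summit are not independent.

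**Figure D2:**
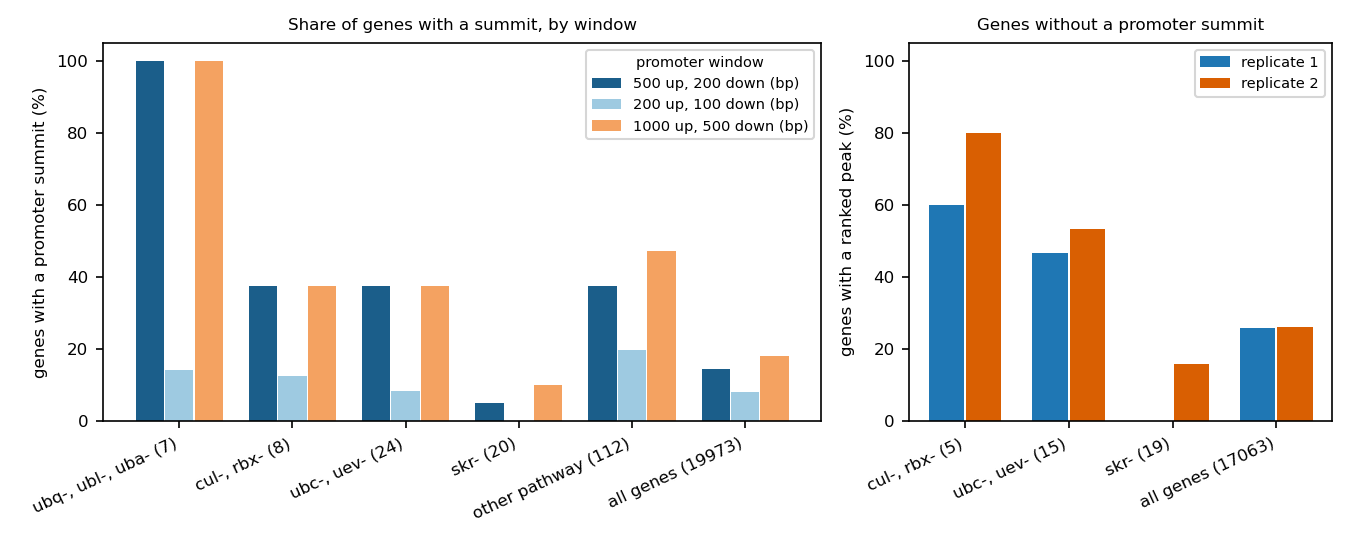
Left, percent of genes with a promoter summit in each gene group and in all 19973 protein-coding genes, for the promoter window used here and for a narrower and a wider one. Right, percent of the genes without a promoter summit that had a ranked peak in the window, in replicate 1 and replicate 2; the number of genes is in brackets, and skr- genes lie below all genes in both panels.

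Genome position was set beside this contrast. On the arms of the autosomes, the outer parts of a chromosome cut into 3 equal lengths, 7 of 15 conjugases and 1 of 13 skr- genes were marked, beside 15.7% of all genes there. In the centres it was 2 of 5 conjugases and 0 of 4 skr- genes, beside 16.6% of all genes. On X it was 0 of 4 and 0 of 3, beside 5.42%. Of the 20 skr- genes, 11 lay within 10000 bp of another skr- gene, in 4 clusters, and none of these was marked; of the 9 that stood alone, skr-18 was. Conjugases were rarely clustered, with 4 of 24 within that distance of another, all unmarked.

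Some promoters of these families hold duplicated sequence. The uniqueness of each promoter was measured as the share of its 50-base words that occur once in the nuclear genome. It was complete for 15 of 20 skr- genes, of which 1 had a summit (6.67%), and for 22 of 24 conjugases, of which 8 had one (36.4%). The exceptions among the skr- genes were skr-8 and skr-9, at 42.8% each, skr-12 (80.1%), skr-13 (85.3%) and skr-4 (97.1%). Among conjugases ubc-6, which has the tallest conjugase peak, had the lowest share (83.1%). The part of sequence uniqueness in these counts was not tested.

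The neighbour upstream also varied. Where the next gene upstream was on the opposite strand within 1000 bp, so that a promoter region may serve both, 5 of 10 conjugases and 0 of 5 skr- genes were marked, beside 29.7% of all genes so placed. Where it was on the same strand within 500 bp, it was 1 of 6 conjugases and 1 of 3 skr- genes (skr-18), beside 18.8%. Elsewhere it was 3 of 8 conjugases and 0 of 12 skr- genes, beside 7.57%. Of the 21 summits at the 59 genes, 7 (33.3%) lay also in the window of another gene, beside 22.3% of all promoter summits. The partners were those of ubc-6, ubc-12, ubc-18, ubc-19, ubq-2, uba-2 and rbx-2 named above. With each summit given only to the nearest 5′ end among those whose window held it, ubc-12, ubc-18, ubc-19, ubq-2 and uba-2 lost theirs, and 15 of 59 genes (25.4%) kept one, beside 11.9% of all genes. With only the 50% of peaks of highest signal value, 18 of the 59 were marked, beside 9.86% of all genes, and with the outermost 5′ ends alone 18 were, beside 13.6%. The other thresholded list of both replicates marked 20, beside 14.7%. Replicate 2's own list marked 21, beside 13.1% of all genes, and replicate 1's marked 19, beside 13.2%. In the window from 1000 bp upstream to 500 bp downstream 21 were marked, beside 18% of all genes.

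Most of the summits lay upstream. Measured to the nearest protein-coding 5′ end at any distance, the median was 236 bp upstream for the 21 summits and 146 bp for all promoter summits, and 13 of the 21 (61.9%) were more than 200 bp upstream, beside 35.8%. Among the 14 summits that lay in 1 gene's window only, the median was 255.5 bp, beside 156 bp for all such summits. Of the 21, 1 was downstream of its nearest 5′ end (4.76%), that of uba-5, beside 17.1% of all promoter summits. The genes marked in the window from 200 bp upstream to 100 bp downstream were ubc-19, uev-1, ubl-5 and rbx-2. Many worm mRNAs receive their first exon by trans-splicing, so an annotated 5′ end can lie downstream of the start of transcription; whether this bears on the distances was not tested.

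**Figure D3:**
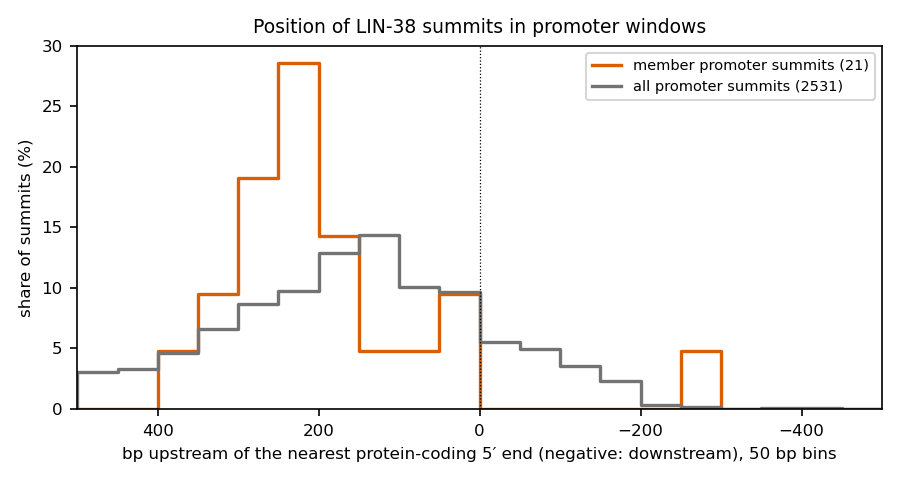
Distance from each promoter summit to the nearest protein-coding 5′ end, in 50 bp bins, as percent of the 21 summits at these genes and of all 2531 promoter summits, with upstream to the left. The summits at these genes gather between 200 and 300 bp upstream, with that of uba-5 alone on the downstream side, while all promoter summits peak between 100 and 150 bp.

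Of the 21 summits, 18 were between genes and 3 in introns, those of ubq-1, uba-5 and the lower one of uba-1. The 101 bp around them, as printed above for 8 genes, had a mean GC content of 48.8%, beside 44.7% at all promoter summits and 34.6% in windows centred 150 bp upstream of all 29314 annotated 5′ ends. TTTGAA, the core that LIN-54 of the DREAM complex binds, was in 5 of 21 windows (23.8%), beside 22.8% of all promoter summits and 29% of the 5′ end windows. CTGCGTC was in 3 (14.3%; cul-3, cul-4 and ubc-3), beside 8.42% and 1.81%. TTTCGAA was in 2 (9.52%), beside 5.06% and 4.9%, and GAGAGA in 2 (9.52%), beside 15.1% and 8.86%. The E2F-like TTCGCGC was in 1 (4.76%), beside 4.9% and 0.87%, and GGGCGGG in 1 (4.76%), beside 1.82% and 0.703%. None of the 21 held the E2F-like GCGGGAA (3.67% and 1.24%), the E-box CACGTG (3.28% and 1.8%), TGACGTCA (0.83% and 0.652%) or a run of 9 T (3.28% and 7.38%), where the shares are again those of all promoter summits and of 5′ end windows. All were searched on both strands, and in the cul-4 window the matches to CTGCGTC and GAGAGA overlap.

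A further pair of patterns was added after the windows had been read, so it is a description only. GCGCG was in 14 of 21 windows (66.7%), beside 34.7% of all promoter summits and 6.22% of 5′ end windows, and GCGCCA in 5 (23.8%), beside 10.6% and 1.93%. GCGCG is part of the reverse complement of TTCGCGC, and both added patterns share the letters GCGC and can overlap. At least one of them was in 16 of 21 windows (76.2%), beside 39.1% of all promoter summits. The windows without either were those of ubc-6, ubc-25, ubq-1, ubq-2 and the lower summit of uba-1. As printed, cul-3, cul-4 and uba-1 hold GCGCG and GCGCCA, ubc-7, ubc-9 and ubl-1 hold GCGCG, and skr-18 holds GCGCCA. The mean GC content of these windows, of all promoter summits and of 5′ end windows fell in the same order as these shares. It was not compared window by window, and its part in the counts was not tested.

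The ubiquitin pathway outside the name rule was read from a list drawn up for this report, with earlier results of these data known. It held 117 genes, 112 of which matched a gene symbol. Of these, 42 (37.5%) had a promoter summit, beside 14.6% of all genes, with a median signal value of 395. By role, summits were at 15 of 36 HECT, RBR, U-box and RING ligase genes and 7 of 20 deubiquitinase genes. They were at 7 of 17 genes for substrate receptors and adaptors of cullin ligases and 4 of 10 cullin regulator genes. The anaphase-promoting complex had 4 of 14 genes marked, further activating enzymes 1 of 5 and the SUMO pathway 1 of 5. Of 5 further conjugase and modifier genes, 3 were marked, the modifier genes urm-1, ned-8 and smo-1. The conjugase gene let-70, which the name rule misses, had no promoter summit, with ranked peaks of 34.4 in replicate 1 and 29.0 in replicate 2. The highest signal value was at eel-1, a HECT ligase gene (1882 in replicate 1 and 1875 in replicate 2; 3541 in the conservative list), close to that of ubl-1. Then came elb-1, the elongin B gene (1607 and 1508), brc-1, the BRCA1 homologue (1523 and 1323), wwp-1, a HECT ligase gene (1283 and 1286), urm-1, a ubiquitin-related modifier gene (1289 and 1258), ubh-4, a deubiquitinase gene (1165 and 1111), ufd-2, a chain elongation factor gene (1097 and 1059), and rnf-1, a RING finger gene (918 and 835). In 18 of the 42 the summit was shared with another gene, as at elb-1, urm-1, ubh-4 and rnf-1. In the narrow window 22 of the 112 (19.6%) were marked, beside 8.04% of all genes.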

How the data were processed

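Chromatin immunoprecipitation of LIN-38-EGFP was sequenced in 2 biological replicates, which form 1 group. Per the labels and the submitted list of outputs, the authors made ranked and thresholded peak lists on ce11 from each replicate's alignments and from both, using the irreproducible discovery rate. For the aligner and peak caller, names and versions were not given in the sources used here. A signal value, given by the authors with no stated scaling, is attached to every deposited peak. The 2 ranked lists made from both replicates were not used.

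Of 5431 conservative peaks, 26 on mitochondrial DNA were left out. Gene models were those of Ensembl release 115 (WBcel235), with 29314 5′ ends of coding transcripts; all peaks and genes fitted within the chromosomes of the RefSeq WBcel235 genome, which gave the sequences. Coordinates count from 1. A replicate's value is that of the overlapping ranked peak with the nearest summit. Assignment of summits was tested on simulated data. Every gene of the set with a promoter summit was named. Other pathway genes were named by the 8 highest signal values, and some modifier, conjugase and E1 genes were named besides. Alternatives changed the promoter window, the assignment, the 5′ ends, the peak list and the overlap. The values of some genes without a promoter summit are not reported here, though they are in all counts. No value carries an interval, because depth is unknown, and no test was made. Genes and lists were chosen with earlier results of these data known. Python 3.11.15, numpy 2.4.6 and pandas 2.3.3 were used.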

Additional observations from a re-analysis of the deposited data

How the results depend on the processing

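The 6 counts of genes with a promoter summit were recomputed under 8 alternatives each, and 41 of the 48 values stayed within 1.5 times the reported count. Of the 7 that did not, 6 came from the window of 200 bp upstream to 100 bp downstream: 4 of 59 genes in all (against 20), 2 conjugases (against 9), 0 skr- genes (against 1), 1 cullin or RING-box gene (against 3), 1 ubiquitin, ubiquitin-like or activating enzyme gene (against 7) and 22 other pathway genes (against 42). In the window of 1000 bp upstream to 500 bp downstream 2 skr- genes were counted, skr-17 being the addition. With either replicate's own list alone, the count was 19 to 21 of all genes, 8 to 9 conjugases, 1 skr- gene and 3 to 4 cullin and RING-box genes. The median over the 21 summits of the mean replicate value, 197, was 193 to 204 with one replicate alone, 197 with an overlap of at least 50% and 202 over the 14 summits in no other gene's window. No paired analysis was possible because there is 1 group. The depth behind the lists is unknown, so a missing peak is not shown to be missing binding, and counts as small as 1 of 20 change with a single gene.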
